A study of Mus musculus with 10 samples.

Results

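The genes described here build and anchor the junctions between gut epithelial cells. They are 5 claudins (Cldn2, Cldn3, Cldn4, Cldn7 and Cldn15), the tight junction membrane proteins occludin (Ocln) and JAM-A (F11r), the scaffold ZO-1 (Tjp1) and E-cadherin (Cdh1), which holds the adherens junction. They were chosen by name from what is known of these proteins, with earlier results of these data already known. All 9 were found among 28987 gene IDs and passed the filter on low values. RNA came from ileal crypts of C57Bl6 mice, all labelled male and 12 weeks old. There were 5 libraries labelled as Stat5 overexpression (OE, genotype VilCreER;icS5, STAT5IEC+++), 2 of the knockout (KO, VilCreER;Stat5, STAT5IEC-/-) and 3 of controls (Ctrl, VilCreER;Stat5, STAT5+/+).

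Every genotype name holds VilCreER, a Cre recombinase that the villin promoter drives in gut epithelium and that works once tamoxifen is given. The allele icS5 is not spelled out in the labels, and no control of that allele's own line is analysed here. STAT5A and STAT5B are transcription factors switched on by cytokine and growth hormone receptors. No label says that the libraries of a group came from separate mice, so the p-values measure the spread between these libraries, which may be partly technical.

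Epithelial cells seal the space between them with a belt of tight junctions near the gut lumen, and claudins are the proteins that set which ions and water pass there. Some claudins form pores for small cations and others tighten the seal, while occludin and JAM-A sit beside them in the membrane and ZO-1 ties all of them to actin. Below that belt lies the adherens junction, where E-cadherin of neighbouring cells binds itself. In the mouse small intestine claudin-2 is known from the crypt base and claudin-15 as the main sodium pore, while claudin-4 is more often found towards the surface.

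Levels were deposited as TPM, which correct for gene length and give a gene's share of the transcripts in its library. They keep no read numbers, so depth is unknown and values carry no counting error. TPM were divided by 1 factor per library, a median ratio over genes, and are called scaled TPM below. Stat5a was at 1.56, 2.10, 3.55, 2.81 and 2.81 scaled TPM in OE 1 to 5, at 0.637 and 0.336 in KO, and at 1.51, 2.60 and 1.07 in Ctrl. Stat5b was at 1.49, 3.50, 4.71, 5.53 and 2.65 in OE, at 0.482 and 0.430 in KO, and at 1.72, 1.76 and 0.970 in Ctrl. The library labelled OE 1 thus lay within the Ctrl range for both genes, while both KO libraries lay below every Ctrl library in scaled TPM. As deposited, Ctrl 2 was at 0.765 TPM of Stat5a and 0.517 of Stat5b, below KO 1 at 0.771 and 0.583. Ctrl 2 stood apart from all other libraries. Mitochondrial genes made up 83.7% of its TPM (43.3% to 57.0% in the other libraries), and only 8263 of its genes reached 1 TPM (11050 to 11932 in the others). Its scaling factor was 0.295 (0.831 to 1.31 in the others), so scaling raised all its values. Its Cldn15 and Ocln were the highest of all libraries when scaled, at 310 and 56.7. As deposited they were the lowest, at 91.3 and 16.7 TPM. Its Cldn4 was at 91.9 scaled and 27.1 as deposited, where OE 5 had 78.7. Ctrl 3, OE 3 and OE 4 had 3.45, 0.250 and 0.140 summed TPM of 4 Y-linked genes, against 32.3 to 131 in the other libraries, although all are labelled male.

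The crypt label was set against marker genes. The epithelial genes Epcam, Krt8, Krt18 and Krt19 summed to 2610 to 4496 scaled TPM in OE, 2659 to 4221 in KO and 1554 to 4477 in Ctrl. The endothelial list summed to at most 3.21 scaled TPM in any library, and its claudin, Cldn5, was listed at 0 in 9 of the 10 libraries. Fibroblast genes such as Dcn, Col3a1 and Vim were also summed. Their sums were 12.8 to 108 scaled TPM in OE, 22.6 to 75.2 in KO and 10.5 to 20.5 in Ctrl. Both KO sums were above every Ctrl sum, and KO lay above every Ctrl library for 9.09% of all genes tested. Vim alone overlapped, at 6.18 to 15.7 in KO and 0.746 to 11.9 in Ctrl. The other 6 fibroblast genes together overlapped too, at 16.5 to 59.5 in KO and 3.66 to 19.8 in Ctrl. Among macrophage genes Lyz2 alone was at 11.6 to 193 scaled TPM in OE, 104 to 171 in KO and 2.39 to 10.7 in Ctrl. The other 5 macrophage genes together came to 7.38 to 18.4 in OE, 15.4 to 22.4 in KO and 8.62 to 12.7 in Ctrl. The lymphocyte list summed to 11.6 to 92.4 in OE, 14.6 to 18.5 in KO and 11.3 to 21.0 in Ctrl. In RNA from whole crypts, fewer cells of a type and less RNA per cell cannot be told apart.

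Promoter sequence is shown for the claudins whose levels or shares differed most between libraries, since the study manipulates a transcription factor. The 250 bases before the RefSeq start (GRCm38.p6) are printed on the gene's strand, 5′ to 3′, for Cldn2 (chrX:139800558-139800807, plus strand), Cldn4 (chr5:134946935-134947184, minus strand) and Cldn15 (chr5:136967619-136967868, plus strand). Capitals mark complete matches to 6 motifs, searched on both strands in the 300 bases from 250 before to 50 after the start.
Cldn2: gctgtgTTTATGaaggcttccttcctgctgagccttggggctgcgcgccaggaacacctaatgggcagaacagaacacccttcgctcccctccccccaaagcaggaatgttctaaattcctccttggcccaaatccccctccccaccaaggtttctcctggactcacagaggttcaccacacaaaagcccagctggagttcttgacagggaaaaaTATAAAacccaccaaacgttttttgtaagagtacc
Cldn4: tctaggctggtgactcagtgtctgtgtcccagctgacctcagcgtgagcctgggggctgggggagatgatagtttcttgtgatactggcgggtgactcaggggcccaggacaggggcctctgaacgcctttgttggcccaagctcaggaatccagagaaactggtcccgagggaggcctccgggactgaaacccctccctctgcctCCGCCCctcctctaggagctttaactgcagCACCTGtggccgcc
Cldn15: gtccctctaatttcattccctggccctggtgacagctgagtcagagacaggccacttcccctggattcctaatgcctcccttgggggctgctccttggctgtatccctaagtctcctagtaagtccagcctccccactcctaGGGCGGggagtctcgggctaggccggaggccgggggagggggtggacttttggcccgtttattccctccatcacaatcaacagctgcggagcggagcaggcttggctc

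In Cldn2 the capitals are the CDX-type word TTTATG and a TATA box (TATAAA) whose first base lies 35 bases before the start. In Cldn4 they are a GC box (GGGCGG, here on the other strand as CCGCCC) and the E-box CACCTG, and in Cldn15 a GC box. Of the 250 bases printed for Cldn15, 25 lie within an exon of the transcript Cldn15-202. RefSeq windows were found for 8 of the 9 genes, 10 windows in all. The palindromic STAT word TTCNNNGAA was in 1 of the 10, the second window of Cldn7, and in 8.30% of the 32851 mouse windows. It is shown with 10 bases on each side (chr11:69965226-69965254, plus strand, capitals mark the match), and all 29 bases lie within an exon of the transcript Cldn7-202.
Cldn7: ccccagggacTTCTGAGAAgccgtcgcct

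The E-box CACCTG was in 6 of the 10 windows and in 20.2% of all windows. The GC box was in 8 of the 10 and in 35.7% of all. The windows of Ocln overlap and share an E-box match, and each of them counts in both of these tallies. The 8 windows with a GC box were 60.3% to 68% G and C, against a median of 52.7% over all windows. The first window of Cldn7 and that of Cldn2, which lack it, were at 52% and 51.3%. What base content adds to these tallies was not tested. TTTATG and TATAAA were each in 1 of the 10, that of Cldn2, against 11.9% and 13.6% of all windows, and the grainyhead-type word AACCNGGTT was in 0 of the 10 and 0.271% of all. The matched words do not overlap one another in the printed stretches. A match is a run of letters, not a measured binding site, and the absence of one holds for this window only.

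Levels of the 9 genes spanned a wide range. Averaged over the 10 libraries, Cldn7 was at 1070 scaled TPM, Cldn15 at 178, Cdh1 at 114, F11r at 80.2, Cldn3 at 65.1, Cldn2 at 43.1, Ocln at 40.6, Cldn4 at 29.9 and Tjp1 at 21.2. Cldn7 was above Cldn15 in all 10 libraries. Cldn15 was above Cdh1, Cdh1 above F11r, and Cldn3 above Cldn2 in 9 of the 10 each. F11r and Cldn3 kept their order in 7 libraries, Cldn2 and Ocln in 7, Ocln and Cldn4 in 8, and Cldn4 and Tjp1 in 4, so these neighbours were not separated beyond the spread between libraries. In scaled TPM the most even genes were Cdh1, with a highest library at 1.52 times the lowest, and Cldn3, at 1.61 times. The most uneven were Cldn4, at 20.4 times, and Cldn2, at 11.5 times. Without Ctrl 2 the ratio was 1.99 for Cldn2 and 15.6 for Cldn4. The order of the even genes depended on the scaling. As deposited, the ratio was 6.62 for Cdh1 and 3.94 for Cldn3, and the smallest were 2.72 for Cldn15 and 3.72 for Ocln. The largest as deposited were 46.3 for Cldn2 and 14.4 for Cldn4.

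**Figure D1:**
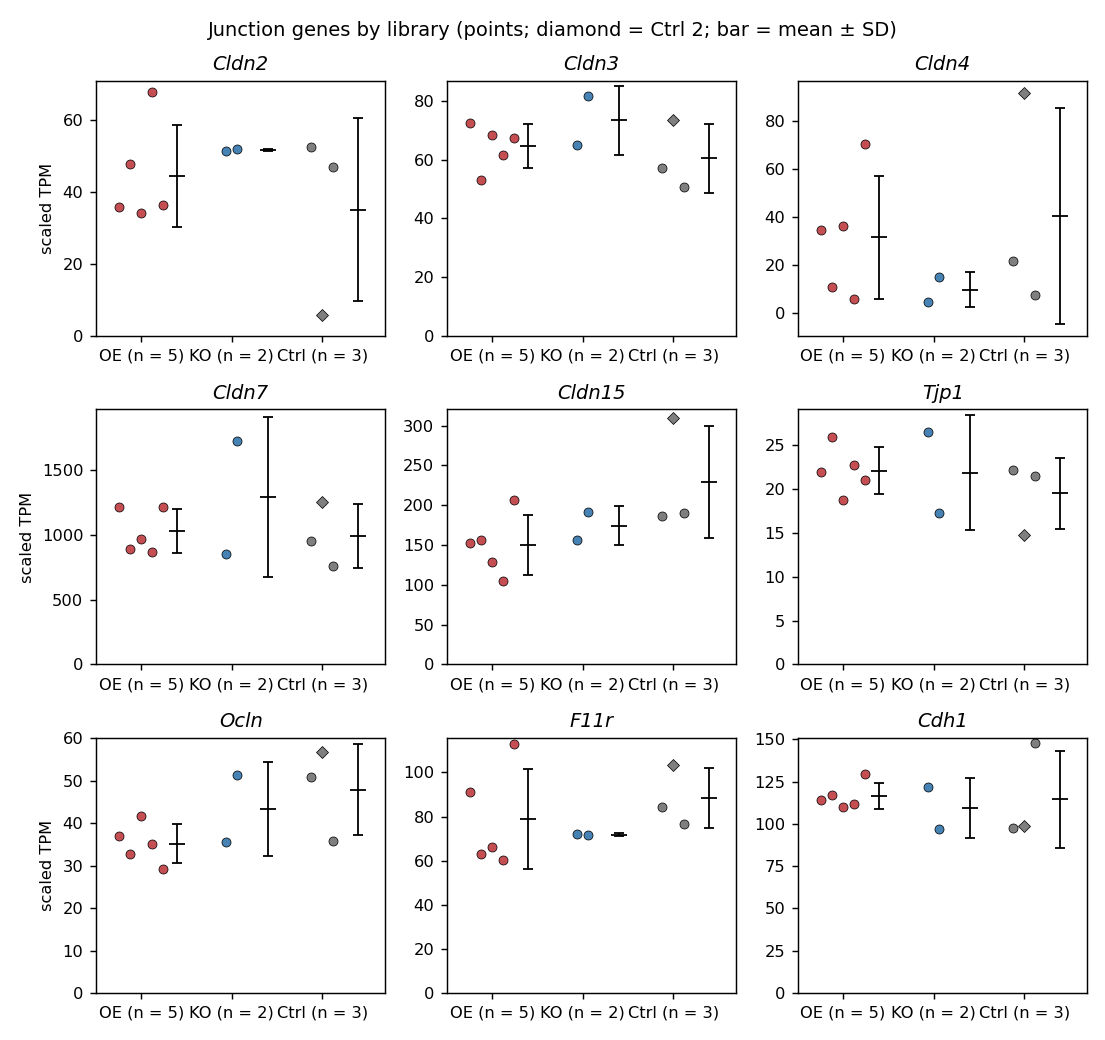
Level of each of the 9 junction genes in scaled TPM (linear axis, one panel per gene) in the OE, KO and Ctrl libraries; points are libraries and bars are the group mean and SD. The diamond is Ctrl 2. In 8 of the panels every pair of groups overlaps, and in the F11r panel the KO libraries lie under every Ctrl library.

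Cldn7 (ENSMUSG00000018569, chr11:69964779-69967885, plus strand, 4 coding exons) encodes claudin-7, a sealing claudin that also lies along the sides of gut epithelial cells and binds EpCAM. It was at 1215, 891, 964, 869 and 1214 scaled TPM in OE 1 to 5, at 853 and 1724 in KO and at 955, 1250 and 762 in Ctrl. The highest library was KO 2 and the lowest Ctrl 3, with KO 1 inside the Ctrl range. The 5 OE libraries averaged 1030.5 ± 172, the 2 KO libraries 1289 ± 616 and the 3 Ctrl libraries 989 ± 246 (mean ± SD).

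Cldn15 (ENSMUSG00000001739, chr5:136966616-136975858, plus strand, 5 coding exons) encodes the sodium pore claudin-15. It was at 152, 156, 128, 105 and 207 scaled TPM in OE, at 157 and 192 in KO and at 187, 310 and 191 in Ctrl. OE 1 to OE 4 lay under every Ctrl library, while OE 5 lay between Ctrl 3 and Ctrl 2. The mean was 149.8 ± 38.0 in OE, 174 ± 24.7 in KO and 229 ± 70.0 in Ctrl. The log2 difference of OE against Ctrl was -0.60 (limma, 95% interval -1.22 to 0.0081, adjusted p = 0.755 over all genes), and -0.37 without Ctrl 2. An exact two-sided permutation test of that difference gave p = 0.0893, where 5 against 3 libraries can reach 0.0179.

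Cldn2 (ENSMUSG00000047230, chrX:139800828-139811386, plus strand, 1 coding exon) encodes claudin-2, a pore for cations and water. It was at 36.0, 47.8, 34.2, 67.9 and 36.4 scaled TPM in OE, at 51.6 and 51.9 in KO and at 52.5, 5.90 and 47.2 in Ctrl. Ctrl 2 was far below all others, and the remaining 9 libraries lay within the range of OE. The log2 difference of OE against Ctrl was 0.75 with Ctrl 2 and -0.21 without it, and that of KO against Ctrl was 1.02 with it and 0.06 without it (limma, adjusted p at least 0.755 with all libraries).

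Cldn3 (ENSMUSG00000070473, chr5:134986214-134987472, plus strand) and Cldn4 (ENSMUSG00000047501, chr5:134945119-134946934, minus strand) are neighbours of 1 coding exon each, and both encode sealing claudins that bind the Clostridium perfringens enterotoxin. Cldn3 was at 72.3, 53.2, 68.4, 61.7 and 67.3 scaled TPM in OE, at 65.1 and 81.5 in KO and at 57.1, 73.6 and 50.8 in Ctrl, with overlapping groups. The antisense gene Wbscr25 overlaps Cldn3 by 40 bases and reached at most 0.778 TPM. Whether the authors counted by strand is not given in the sources used here.

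Cldn4 was at 34.8, 10.7, 36.4, 5.85 and 70.5 scaled TPM in OE, at 4.51 and 14.9 in KO and at 21.6, 91.9 and 7.67 in Ctrl. High and low libraries stood in both larger groups, and the KO libraries were both under 15 but overlapped Ctrl 3. Its neighbour Cldn3 did not follow it, since Cldn4 was 1.25 times Cldn3 in Ctrl 2, 1.05 times in OE 5 and 0.0692 times in KO 1. The log2 difference of KO against Ctrl was -1.49 (SE 1.11, limma, 95% interval -3.94 to 0.96, adjusted p = 0.943). It was -0.58 without Ctrl 2, -0.73 without KO 1, -2.26 without KO 2 and -2.29 without Ctrl 3.

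Ocln (ENSMUSG00000021638, chr13:100496507-100552718, minus strand, 8 coding exons) encodes occludin, a 4-span membrane protein of the tight junction strand. It was at 37.1, 32.8, 41.6, 35.0 and 29.2 scaled TPM in OE, at 35.6 and 51.3 in KO and at 51.0, 56.7 and 35.9 in Ctrl. OE libraries were lower than Ctrl 1 and Ctrl 2, and OE 1 and OE 3 were above Ctrl 3. The log2 difference of OE against Ctrl was -0.42 (limma, 95% interval -0.92 to 0.084, adjusted p = 0.755), with p = 0.0714 in the exact two-sided permutation test.

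F11r (ENSMUSG00000038235, chr1:171437535-171464603, plus strand, 10 coding exons) encodes JAM-A, an adhesion protein of epithelium that leukocytes and endothelium also make. It was at 91.2, 63.2, 66.2, 60.5 and 113 scaled TPM in OE, at 72.2 and 71.4 in KO and at 84.5, 103 and 76.8 in Ctrl. Both KO libraries lay under every Ctrl library in scaled TPM, as they did for 7.27% of all genes tested. As deposited the groups overlapped, with Ctrl 2 at 30.4 TPM below the KO libraries at 87.3 and 74.9. The log2 difference of KO against Ctrl was -0.28 (limma, 95% interval -0.97 to 0.41), or -0.16 without Ctrl 2, and the exact two-sided permutation test gave p = 0.2, where 2 against 3 libraries can reach 0.1. The fibroblast, lymphocyte and macrophage levels given above moved between libraries too, and their part in F11r was not tested.

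Tjp1 (ENSMUSG00000030516, chr7:65296165-65527781, minus strand, 28 coding exons) encodes ZO-1. It was at 21.9, 26.0, 18.7, 22.7 and 21.0 scaled TPM in OE, at 26.4 and 17.2 in KO and at 22.2, 14.8 and 21.4 in Ctrl. The lowest library was Ctrl 2 and the highest KO 1, and the groups overlapped. Cdh1 (ENSMUSG00000000303, chr8:106603351-106670246, plus strand, 16 coding exons) was at 114, 117, 110 and 112 scaled TPM in OE 1 to 4 and 130 in OE 5, at 122 and 96.9 in KO and at 97.4, 98.8 and 148 in Ctrl. Its means, 116 ± 7.91 in OE, 109.5 ± 17.8 in KO and 114.6 ± 28.6 in Ctrl, lay within 1 SD of each other.

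None of the 9 genes passed the test in any comparison. On simulated data the limma fit recovered only 6.4% to 17.2% of 2-fold changes, depending on the comparison. A missing call therefore does not by itself exclude such a change. In limma 0% of the 13056 genes tested were called at an adjusted p under 0.05, whether KO was set against Ctrl, OE against Ctrl or OE against KO. At an unadjusted p under 0.05 there were 452, 797 and 385 genes in those comparisons, and 0 of the 9 junction genes in each. Cldn15 in OE against Ctrl fell under it with quantile normalization (limma, unadjusted p = 0.0233, adjusted p = 0.818), with a pseudocount of 0.1 (0.0497) and with no filter (0.0436), and without OE 5 or Ctrl 1 (0.0249 and 0.0491). Ocln did so in OE against Ctrl without Ctrl 3 (0.0320) and without Ctrl 3, OE 3 and OE 4 (0.0383). F11r in KO, below every Ctrl library in scaled TPM, was the only junction gene whose groups did not overlap in a comparison. Over all genes tested, KO lay above every Ctrl library for 9.09% and below for 7.27%, OE above every Ctrl library for 2.21% and below for 1.52%, and OE above both KO libraries for 4.04% and below for 4.43%. In KO against Ctrl 4 of the 9 had a positive log2 difference and 5 a negative one, with a median of -0.05, beside 0.04 over all genes. In OE against Ctrl 5 were positive and 4 negative, with a median of 0.05, beside 0.02. In OE against KO 4 were positive and 5 negative, with a median of -0.18, beside -0.00062. KO against Ctrl and OE against Ctrl share the Ctrl libraries.

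The intervals of this fit differed in width between genes. For Cdh1 the 95% interval was -0.63 to 0.54 for KO against Ctrl and -0.42 to 0.51 for OE against Ctrl, so a doubling or halving lay outside both. The same held for Cldn3 (-0.29 to 0.85 and -0.35 to 0.56), Tjp1 (-0.48 to 0.77 and -0.32 to 0.69), Ocln (-0.76 to 0.49 and -0.92 to 0.084) and F11r (-0.97 to 0.41 and -0.75 to 0.36). For Cldn2 (-0.61 to 2.64 and -0.55 to 2.05), Cldn4 (-3.94 to 0.96 and -2.11 to 1.82), Cldn7 (-0.57 to 1.22 in KO) and Cldn15 (-1.12 to 0.41 and -1.22 to 0.0081) such a change lay inside the interval. For the first 5 genes this depended on the setting in part. A doubling lay inside the interval of Cdh1 without scaling (-1.01 to 1.96 in KO), and a doubling or halving lay inside those of Cldn3 (-0.65 to 1.15), Tjp1 (-0.79 to 1.05), Ocln (-1.11 to 0.73) and F11r (-1.22 to 0.49) for KO against Ctrl with the replicate number as a block. Without the scaling factor the median over all genes moved to 0.38 for KO against Ctrl and 0.36 for OE against Ctrl. The signs of Cldn15, Ocln, F11r and Cdh1 for KO against Ctrl, and of Cldn4, Ocln and F11r for OE against Ctrl, then turned positive.

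**Figure D2:**
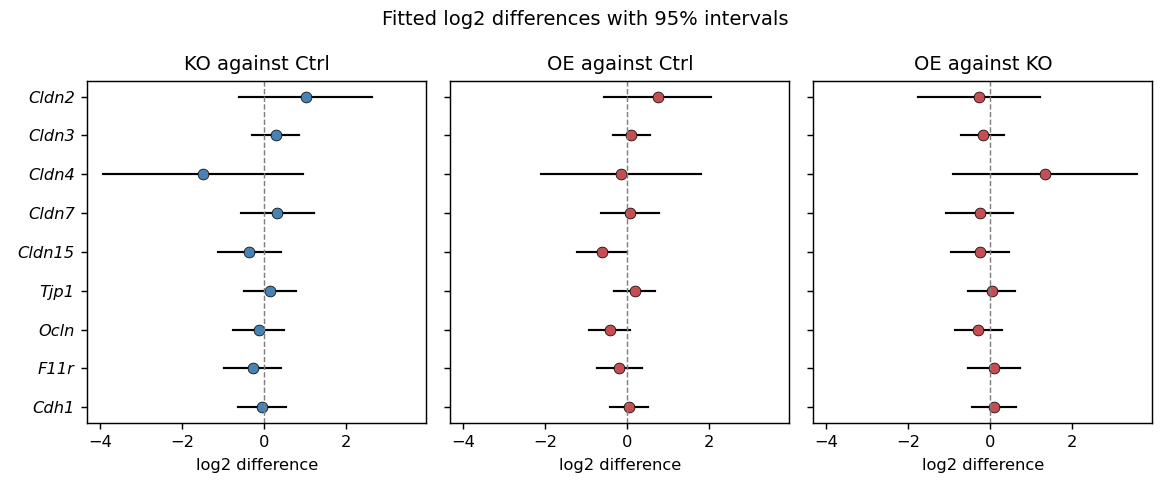
Log2 difference of each junction gene with its 95% interval from the limma fit, in 3 panels (KO against Ctrl, then OE against Ctrl, then OE against KO). Every interval crosses 0, and those of Cldn4 and Cldn2 are the widest.

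The makeup of the claudin pool was compared within each library, which needs no scaling between libraries. The 5 claudins made up 97.2% to 98.3% of the TPM of all claudin genes. Cldn7 took 80.5%, 76.9%, 78.3%, 78.3% and 76.1% of their sum in OE 1 to 5, 75.4% and 83.5% in KO, and 75.0%, 72.2% and 72.0% in Ctrl. Cldn15 took 10.1%, 13.5%, 10.4%, 9.50% and 13.0% in OE, 13.9% and 9.28% in KO, and 14.7%, 17.9% and 18.0% in Ctrl. Every OE and KO library had a larger Cldn7 share and a smaller Cldn15 share than every Ctrl library.

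The mean Cldn7 share was 78.0% ± 1.66 in the 5 OE libraries and 73.1% ± 1.69 in the 3 Ctrl libraries (SD), a difference of 4.92 percentage points. The mean Cldn15 share was 11.3% ± 1.81 in OE and 16.9% ± 1.90 in Ctrl, a difference of -5.57 points. Each gave p = 0.0179 in an exact two-sided permutation test, the smallest that 5 against 3 libraries allow, and adjusted p = 0.134 over the 15 share comparisons in the exact permutation test, which does not pass 0.05. The shares sum to 100% in each library, so the pair is not independent. When every gene was divided by the same claudin sum, the OE libraries lay above all Ctrl libraries for 1.29% of the 13056 genes and below them for 1.43%. With each library left out in turn, the difference stayed between 4.31 and 5.90 points for Cldn7 and between -6.66 and -4.99 points for Cldn15.

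In KO the mean Cldn7 share was 79.5% ± 5.74 (SD, n = 2), 6.39 points above Ctrl, and the mean Cldn15 share was 11.6% ± 3.24, -5.29 points against Ctrl. The exact two-sided permutation tests gave p = 0.1 and p = 0.2, where the smallest possible is 0.1, and adjusted p = 0.5 and p = 0.6 over the 15. For KO above and below Ctrl the shares over all genes were 2.86% and 8.16%. KO 2 carried much of it: without that library the differences were 2.33 and -2.99 points, and without KO 1 they were 10.5 and -7.58. Cldn4 took 0.399% and 0.722% in KO against 1.70%, 5.31% and 0.724% in Ctrl, so KO lay below Ctrl, by very little in the case of KO 2 and Ctrl 3 (exact permutation p = 0.4). The Cldn2 and Cldn3 shares overlapped between all groups, and none of the 5 shares separated OE from KO, as 4.34% of all genes did upwards and 0.95% downwards. Cldn2 was 0.236, 0.306, 0.266, 0.644 and 0.176 times Cldn15 in OE, 0.329 and 0.271 times in KO, and 0.281, 0.0190 and 0.247 times in Ctrl.

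**Figure D3:**
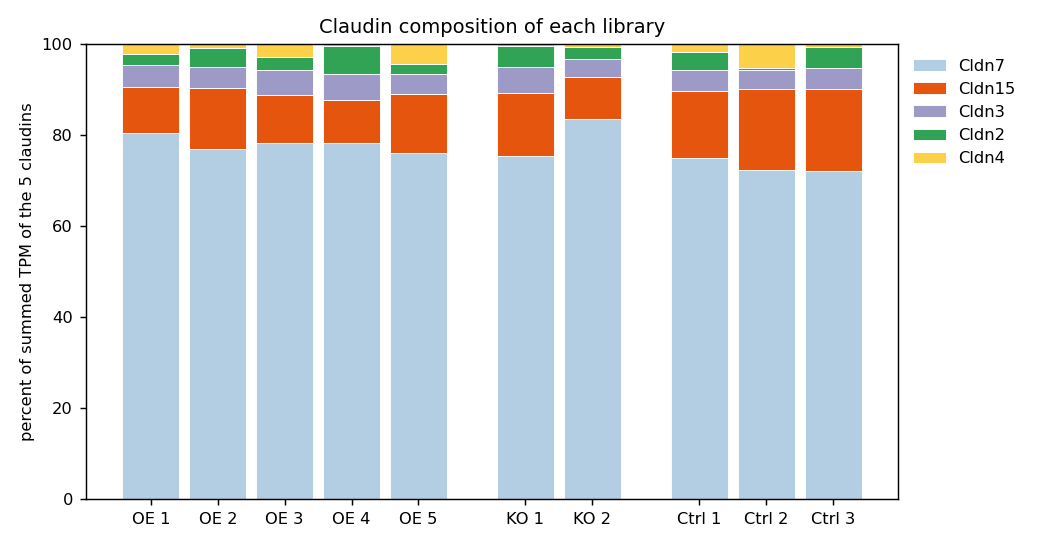
Percent of the summed TPM of the 5 claudins taken by each of them, as 1 stacked bar per library for OE, KO and Ctrl. The Cldn7 segment is taller, and the Cldn15 segment above it shorter, in every OE and KO bar than in every Ctrl bar.

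The 9 genes were also set against 14 genes of mature enterocytes, the absorptive cells of the villus above the crypt, such as Alpi, Fabp1 and Sis. Their mean log2 level was 7.71, 6.37, 7.20, 4.92 and 7.04 in OE, 5.80 and 6.61 in KO, and 7.13, 9.63 and 5.56 in Ctrl. Ctrl 2 was the highest, and it was also the lowest for 8 stem and cell cycle genes, at 2.61 against 3.94 to 5.17 in the other libraries, and for 9 Paneth cell genes, at 4.37 against 8.09 to 10.3.

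Cldn4 rose with the enterocyte genes over the 10 libraries. Pearson's r was 0.876 (permutation p = 0.00019, adjusted p = 0.00171 over 9 relations) and Spearman's rho was 0.879 (permutation p = 0.00155, adjusted p = 0.0139). Without Ctrl 2 and OE 4, the libraries farthest from the median enterocyte level, r was 0.841. Cldn2 ran the other way, with r = -0.882 (permutation p = 0.00077, adjusted p = 0.00346) and rho = -0.697 (permutation p = 0.0310, adjusted p = 0.0931). Its r was -0.617 without those libraries, so its size rests partly on them. For Cldn15 r was 0.700 (permutation p = 0.0303, adjusted p = 0.0559) and -0.228 without them, so that relation rests on those libraries. Of the other 6 genes none passed after adjustment, Tjp1 at -0.682 and F11r at 0.675 (adjusted permutation p = 0.0559 each) being nearest. The same relation was not computed for all genes tested. Whether it is particular to these genes was therefore not tested. The libraries of all groups were pooled for these values, and no group holds the 6 libraries needed for a value of its own.

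**Figure D4:**
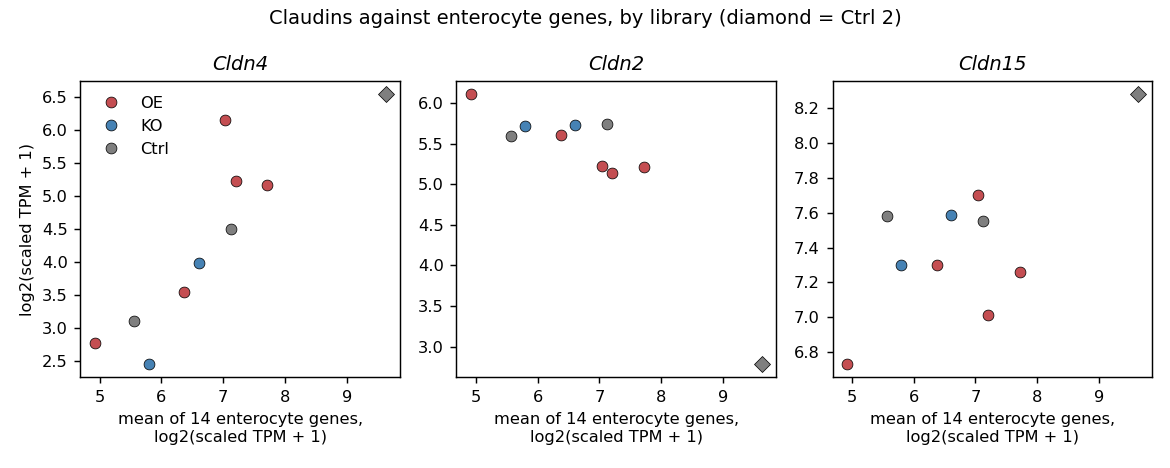
Level of Cldn4, Cldn2 and Cldn15 (log2 of scaled TPM + 1) against the mean log2 level of 14 enterocyte genes in the same library; each point is a library, coloured by group (OE, KO, Ctrl). Cldn4 climbs along the axis, Cldn2 is lowest in Ctrl 2 (diamond, at the right end), and Cldn15 spans less than 1 log2 unit among the libraries other than Ctrl 2.

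Relative to the epithelial genes Epcam, Krt8, Krt18 and Krt19 in the same library, no junction gene reached an exact permutation p under 0.05 in any comparison. For KO against Ctrl this was fixed in advance, since the smallest possible exact permutation p is 0.1. It is 0.0476 for OE against KO and 0.0179 for OE against Ctrl. The exact permutation p of Cldn15 for OE against Ctrl was 0.0714 on a log2 difference of -1.04, which was -0.44 without Ctrl 2 and -1.55 without Ctrl 3. It was the smallest p of the 27 such comparisons.

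The wider junction machinery showed no called gene either. Of 81 other genes in 6 lists 57 passed the filter, and 0 of the 57 were called by limma in any comparison. At an unadjusted p under 0.05 there was 1 in KO against Ctrl, the polarity scaffold Pard3. There were 3 in OE against Ctrl, namely Pard3, the gap junction subunit Gjb2 and the intestinal transcription factor Cdx1, and 0 in OE against KO. Over all genes tested that threshold took 3.46%, 6.10% and 2.95% in those comparisons. Pard3 had a log2 difference of -0.82 in KO and -0.63 in OE, and Gjb2 and Cdx1 of 0.84 and 0.73 in OE (limma, adjusted p = 0.943 in KO and 0.755 in OE). Without Ctrl 2 the differences in OE were -0.55 for Pard3, 0.41 for Gjb2 and 0.30 for Cdx1. They were picked out after their values were seen.

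Among 18 other claudins 4 passed the filter, and Cldn14, Cldn16, Cldn17, Cldn22 and Cldn24 were listed at 0 in all libraries. Cldn12 was the highest of them, at 14.8 ± 1.80 scaled TPM in OE, 20.9 ± 4.94 in KO and 15.5 ± 0.884 in Ctrl (SD, n = 5, 2 and 3). Cldn23 ranged over 5.55 to 12.3 in OE, 10.1 to 12.3 in KO and 9.71 to 12.7 in Ctrl, and Cldn8 at 1.47 ± 1.28 in OE, 1.80 ± 0.998 in KO and 1.66 ± 1.85 in Ctrl.

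Of 25 further tight junction genes 22 were tested. In KO against Ctrl 9 were positive and 13 negative (median -0.10), and in OE against Ctrl 5 were positive and 17 negative (median -0.16). Without Ctrl 2 the split was 14 positive and 8 negative (median 0.04) in KO against Ctrl, and 11 positive and 11 negative (median -0.0066) in OE against Ctrl. The highest were the polarity kinase Prkcz, at 67.0 ± 11.2 scaled TPM in OE, 66.1 ± 12.4 in KO and 71.1 ± 12.2 in Ctrl, the scaffold Tjp3 (ZO-3), at 62.7 ± 10.6 in OE, 66.4 ± 11.6 in KO and 52.9 ± 7.26 in Ctrl, and Lsr (angulin-1), which marks corners where 3 cells meet, at 53.8 ± 10.0 in OE, 62.8 ± 6.78 in KO and 62.3 ± 11.9 in Ctrl.

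Of 14 adherens junction genes 13 were tested, 5 positive and 8 negative in KO against Ctrl and 4 and 9 in OE against Ctrl. Over all genes tested 53.0% and 52.1% were positive in those comparisons. Without Ctrl 2 the split was 5 and 8 in KO against Ctrl and 6 and 7 in OE against Ctrl, beside 50.7% and 49.4% of all genes. Epcam was at 496 ± 142 scaled TPM in OE, 393 ± 48.0 in KO and 449 ± 85.2 in Ctrl. Cdh17, a cadherin of liver and intestine, was at 247 ± 28.1 in OE, 307 ± 92.3 in KO and 319 ± 120.1 in Ctrl, and Ctnnd1 (p120-catenin), which holds E-cadherin at the membrane, at 177 ± 36.9 in OE, 267 ± 131 in KO and 188 ± 29.6 in Ctrl.

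All 8 desmosome genes were tested, 4 positive and 4 negative in KO and in OE against Ctrl. Perp was at 107 ± 21.1 scaled TPM in OE, 139 ± 22.8 in KO and 99.6 ± 14.3 in Ctrl, the desmosomal cadherin Dsc2 at 86.9 ± 8.15 in OE, 127 ± 50.4 in KO and 94.0 ± 10.7 in Ctrl, and desmoplakin (Dsp) at 75.5 ± 28.1 in OE, 93.4 ± 33.7 in KO and 97.4 ± 4.81 in Ctrl. Of 4 connexins 3 were tested, 2 positive and 1 negative in both comparisons with Ctrl, with, in scaled TPM, Gjb1 at 9.80 ± 1.83 in OE, 9.34 ± 2.27 in KO and 10.9 ± 2.10 in Ctrl and Gjb2 at 2.34 ± 0.920 in OE, 2.32 ± 0.406 in KO and 0.960 ± 0.833 in Ctrl.

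Of 12 transcription factors known to act on junction genes 7 were tested, and Snai1, a repressor of Cdh1, was listed at 0 in all libraries. In KO against Ctrl 7 of the 7 were positive (median 0.33) and in OE against Ctrl 6 of 7 (median 0.16), with no call, beside 53.0% and 52.1% of all genes tested. Without Ctrl 2 there were 5 of 7 (median 0.14) in KO against Ctrl and 4 of 7 (median 0.13) in OE against Ctrl, beside 50.7% and 49.4% of all genes. Elf3 was at 134 ± 25.0 scaled TPM in OE, 116 ± 24.9 in KO and 106 ± 47.3 in Ctrl, Klf5 at 85.8 ± 15.6 in OE, 105 ± 24.8 in KO and 83.9 ± 20.6 in Ctrl, and Hnf4a at 79.2 ± 6.41 in OE, 81.5 ± 0.728 in KO and 80.3 ± 15.1 in Ctrl.

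**Figure D5:**
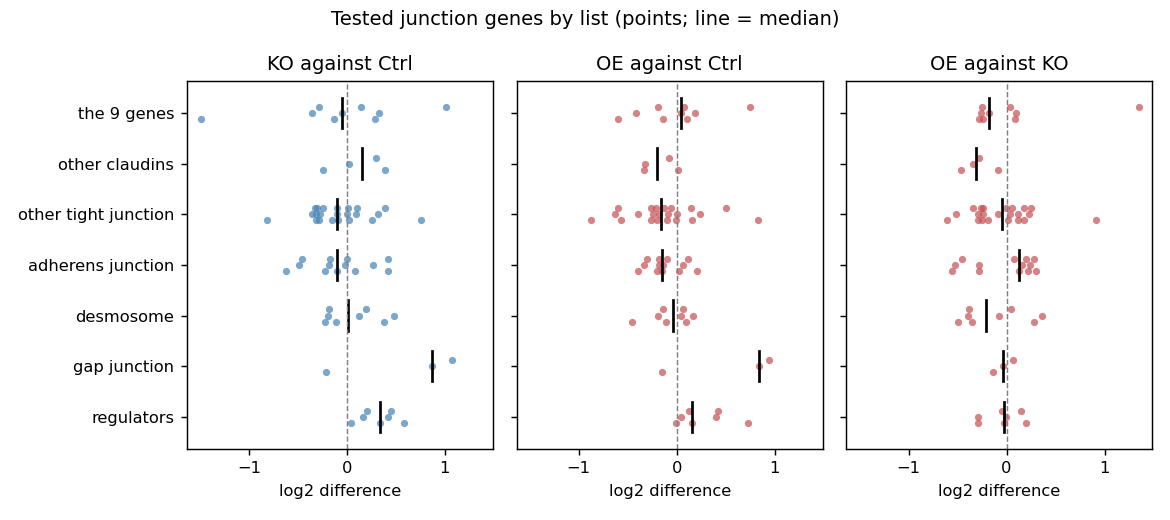
Log2 difference of each tested gene of the junction gene lists, in 3 panels (KO against Ctrl, then OE against Ctrl, then OE against KO); points are genes, lines are list medians, and the top row holds the 9 genes described here. The 57 genes other than the 9 lie on both sides of 0, and none was called by limma.

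For each junction gene the tested gene with the most similar pattern over the 10 libraries was looked up among 11428 named genes, by Pearson's r of the log2 levels. The most alike were Lyar for Cldn2 (r = 0.974), Tango2 for Cldn3 (0.930), Cux2 for Cldn4 (0.964), Pgp for Cldn7 (0.974), Sox6 for Cldn15 (0.929), Itpka for Tjp1 (0.922), Slc22a5 for Ocln (0.963), Psenen for F11r (0.923) and Sri for Cdh1 (0.942). These are the highest of many values and are given as a description with no test. Without the 2 libraries farthest from the median, r of Cldn2 with Lyar was 0.585 and that of Cldn15 with Sox6 was 0.685, while the other 7 pairs stayed between 0.796 and 0.937.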

How the data were processed

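RNA-seq libraries of ileal crypts (5 OE, 2 KO, 3 Ctrl) were analysed. Crypts were shaken off in 10 mM EDTA at 37 C for 30 min, per the labels' protocols. The authors deposited TPM, as 9 of the 10 file headers state. For Ctrl 1, whose header names no unit, TPM was inferred from the column's sum. The submitters' processing notes name TopHat, Cufflinks and the build mm10, and no source used here gives the annotation. Sums per library ran between 979539 and 994373 TPM. Symbols and coordinates came from GENCODE M21 (GRCm38, also called mm10), which named 27458 of 28987 IDs. Promoters came from RefSeq GRCm38.p6.

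TPM were scaled by median ratios over 11146 genes above 0 in every library. Genes at 1 TPM or more in at least 2 libraries (13056) were tested on log2 values, with 1 added to scaled TPM, by limma 3.58.1 in R 4.3.3 with 3 group means and a mean-variance trend. Log2 differences understate the change of low genes. P-values were adjusted by Benjamini-Hochberg over all genes, with a threshold of 0.05. Levels, claudin shares and levels relative to epithelial genes were compared by exact two-sided permutation tests over libraries (all splits enumerated in Python 3.11.15 with numpy 2.4.6). Correlations with enterocyte genes (Spearman's rho by scipy 1.17.1) used 100000 resamples and were added after the plan. The fit was checked on simulated data in 5 runs. For KO with Ctrl as reference it recovered 6.4% of 2-fold and 80% of 8-fold changes. For OE it recovered 17.2% and 89.8% with Ctrl as reference, and 10.2% and 82.4% with KO as reference. Unchanged genes called numbered 21, 25 and 28 in the same order. Most 2-fold changes were thus missed. The 9 genes and all lists were chosen with earlier results of these data known. Other genes were named by rule: the 3 of highest mean TPM in each list, and the 1 gene most like each junction gene. A gene that this rule takes is not reported here. Alternatives were other scalings, pseudocounts, filters and denominators, only the groups compared, a replicate block and leaving out each library. Leaving out Ctrl 3, OE 3 and OE 4 together, and Ctrl 2 for the other junction genes, was chosen after seeing the data.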

Additional observations from a re-analysis of the deposited data

Results flagged for a closer look

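In OE, the level of Cldn3 relative to the epithelial genes Epcam, Krt8, Krt18 and Krt19 was far from the others in 1 library. OE 3 stood at -2.89 on the log2 scale, and the other OE libraries lay between -3.71 and -3.51. The gap to the nearest library was 0.755 of the range of the group, above the critical value of 0.710 for 5 samples. Of 23 groups looked at in this way 1 stood out, and chance gives about 1 in 20. Cldn3 itself was at 68.4 scaled TPM in OE 3, within the OE range of 53.2 to 72.3. The epithelial genes it was set against summed to 2610 scaled TPM in OE 3 and to 3345 to 4496 in the other OE libraries. The flagged value thus went with a low level of those epithelial genes, not with a high Cldn3 level.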

How the results depend on the processing

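No junction gene was called in any comparison under any of the alternatives run, the smallest adjusted p in limma being 0.406 for Ocln in OE against Ctrl without Ctrl 3. The number of genes called among all tested was 0 in each comparison. With no filter it was 5 in KO against Ctrl and 7 in OE against KO, and with only the groups compared it was 1 in KO against Ctrl and 1 in OE against Ctrl. Leaving out Ctrl 3, OE 3 and OE 4 gave 1 in OE against Ctrl and 1 in OE against KO. Leaving out each library in turn gave 0 to 2 in KO against Ctrl, 0 to 1 in OE against Ctrl and 0 to 2 in OE against KO. With the replicate number as a block it was 3 in OE against Ctrl and 0 in the other comparisons. Same-numbered libraries did not deviate together (r of deviations from the group means -0.170 and 0.0634 for KO and Ctrl, -0.128, -0.0519 and -0.177 for OE and Ctrl, 0.0600 and -0.0841 for OE and KO), so the numbers were not taken as pairs. The block turned the log2 difference of Cdh1 to 0.038 in KO against Ctrl and -0.023 in OE against KO, and changed no other sign of the 9 genes.

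Other settings turned signs of values that had not passed a test, and the cause was not tested. Without scaling, log2 differences in KO against Ctrl were 0.17 for Cldn15, 0.38 for Ocln, 0.24 for F11r and 0.48 for Cdh1, and in OE against Ctrl 0.36 for Cldn4, 0.077 for Ocln and 0.31 for F11r. Quantile normalization gave -0.0069 for Cldn7 in OE against Ctrl. Leaving out Ctrl 3, OE 3 and OE 4 gave 0.15 for Cdh1 in KO against Ctrl and -0.023 for Cldn3 in OE against Ctrl. In the claudin shares it gave -0.322 points for Cldn3 and 0.609 points for Cldn15 in OE against KO, and relative to epithelial genes -0.41 for Cldn3 and -0.40 for Cldn7 in KO against Ctrl and -0.10 for Cldn2 in OE against Ctrl. As a share of all claudins, Cldn2 in OE against KO was 0.00647 points. Relative to Epcam alone, KO against Ctrl was 0.26 for Tjp1, 0.025 for Ocln and 0.12 for Cdh1, and OE against Ctrl was 0.0037 for Tjp1. The Cldn7 and Cldn15 shares against Ctrl kept their sign under every alternative run.

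With each library left out in turn, these results changed sign, with the lowest and highest values given. The log2 differences ran, in KO against Ctrl, -0.18 to 0.83 for Cldn7, -0.15 to 0.44 for Tjp1, -0.39 to 0.12 for Ocln, -0.21 to 0.15 for Cdh1. They ran, in OE against Ctrl, -0.21 to 1.27 for Cldn2, -0.013 to 0.25 for Cldn3, -0.95 to 0.77 for Cldn4, -0.10 to 0.26 for Cldn7, -0.055 to 0.24 for Cdh1. They ran, in OE against KO, -0.76 to 0.26 for Cldn7, -0.26 to 0.33 for Tjp1, -0.051 to 0.17 for F11r, -0.070 to 0.26 for Cdh1. The share differences, in percentage points, ran, in KO against Ctrl, -0.75 to 1.59 for Cldn2, -0.56 to 1.25 for Cldn3. They were, in OE against Ctrl, -0.75 to 1.30 for Cldn2, -1.28 to 1.013 for Cldn4. They were, in OE against KO, -1.03 to 1.02 for Cldn2, -0.82 to 0.994 for Cldn3, -5.53 to 2.59 for Cldn7, -2.57 to 2.01 for Cldn15. The levels relative to epithelial genes ran, in KO against Ctrl, -0.43 to 0.66 for Cldn3, -0.72 to 1.06 for Cldn7, -1.04 to 0.079 for Cldn15, -0.43 to 0.18 for Tjp1, -0.95 to 0.34 for Ocln, -0.94 to 0.038 for F11r, -0.43 to 0.061 for Cdh1. They lay, in OE against Ctrl, -0.28 to 0.67 for Cldn2, -0.86 to 0.18 for Cldn3, -1.80 to 0.70 for Cldn4, -0.93 to 0.18 for Cldn7. They lay, in OE against KO, -0.999 to 0.090 for Cldn3, -0.085 to 2.25 for Cldn4, -1.42 to 0.37 for Cldn7, -1.05 to 0.0086 for Cldn15, -1.20 to 0.086 for Ocln, -0.56 to 0.19 for F11r, -0.40 to 0.040 for Cdh1. TPM hold no read numbers, so what depth limits cannot be given. Only 2 KO libraries limit every KO comparison, since no exact permutation p below 0.1 is possible against Ctrl or below 0.0476 against OE.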
